A study of Rattus norvegicus with 9 samples.

Results

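The Dlk1-Dio3 imprinted miRNA cluster was followed in cultured heart muscle cells of newborn rats in which the Hippo pathway co-activator Yap had been manipulated with adenovirus. Members were all annotated entries of the small RNA table that carry 1 of 43 miRNA numbers of the cluster, with any letter and arm, and 84 of 1422 entries met this rule. Of these 84, 56 were among the 579 entries with enough reads to be tested. The other 28 had at most 19 reads in any library and are not tested below.

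Primary neonatal rat cardiomyocytes (NRCMs) came from Sprague Dawley pups and were sampled 48 h after infection, with 3 libraries in each of 3 groups. Ad-Yap WT carries Yap and is labelled as Yap1 overexpression, Ad-Yap shRNA is labelled as Yap1 knock down, and Ad-GFP, which carries green fluorescent protein, is the control on an otherwise wild-type background. All groups received a virus and normal glucose. The groups used here include no virus with a non-targeting shRNA, so effects of an shRNA as such and of lower Yap cannot be told apart. The table holds no mRNA, so the level of Yap could not be checked, and the labels do not say whether the 3 libraries of a group came from separate isolations, so p-values measure the spread between these libraries only.

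The cluster lies between the paternally expressed genes Dlk1 and Dio3. Its miRNAs are processed from long noncoding transcripts of the maternal chromosome that start at Meg3, and expression is high in embryo, placenta and brain and falls in most tissues after birth. One stretch is antisense to Rtl1, a paternally expressed gene that in mouse is cut by the perfectly matching miRNAs miR-127, miR-136, miR-431, miR-433 and miR-434. A second stretch, from miR-379 to miR-410, is activated by the muscle and neuron transcription factor Mef2 in rodents, and miR-410 and miR-495 were reported to promote proliferation of neonatal rat cardiomyocytes.

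In RefSeq annotation of GRCr8, 82 of the 84 members were found, on 47 hairpins in chr6:134298094-134579828, and 80 of these 82 lie on the plus strand. The order of genes was Dlk1, Meg3, the first 12 hairpins with Rtl1 among them, the remaining 35 hairpins, and Dio3. The first 12 hairpins form the Rtl1-antisense and Meg3 side (chr6:134298094-134354559, 56.5 kb, miR-770 to miR-370, 21 members, 15 tested). The remaining hairpins (chr6:134543460-134579828, 36.4 kb, miR-379 to miR-410, 63 members, 41 tested) begin 188.9 kb further on. The hairpins of both stretches are noncoding RNA, and no gene model of the build the submitters name was used.

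The mature sequences on which the results turn are given from RefSeq (GRCr8), 5′ to 3′, with the seed (bases 2 to 8), the part that pairs with targets, in capitals. The first 5 belong to the Rtl1-antisense and Meg3 side, and miR-379-5p and the following belong to the other stretch.
miR-127-3p: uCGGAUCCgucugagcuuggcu
miR-433-3p: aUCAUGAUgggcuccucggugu
miR-434-5p: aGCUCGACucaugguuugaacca
miR-540-3p: aGGUCAGAggucgauccugggc
miR-493-5p: uUGUACAUgguaggcuuucauu
miR-379-5p: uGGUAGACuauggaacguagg
miR-411-5p: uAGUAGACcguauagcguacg
miR-376a-3p: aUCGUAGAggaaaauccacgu
miR-410-3p: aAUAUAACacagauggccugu
miR-154-5p: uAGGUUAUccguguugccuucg
miR-154-3p: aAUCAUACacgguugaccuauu
miR-299a-5p: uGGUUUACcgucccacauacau
miR-299b-5p: cGGUUUACcgucccacauac

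The cluster is one of many seeds and few families. The 82 matched members carry 76 different seeds, of which 71 occur in a single member, and the seed largely sets which targets a miRNA pairs with. One of the 5 shared seeds, GGUUUAC, joins miR-299a-5p and miR-299b-5p, which differ over 20 bases by U1C alone (counted from the 5′ end, miR-299a-5p first). Likewise miR-300-3p and miR-381-3p differ over 18 bases by G4A, and miR-376b-5p and miR-376c-5p over 21 bases by G19U. The labels do not say how reads that match more than 1 entry were assigned, so values of these members are uncertain. The table lists 4 reads of miR-381-3p in all 9 libraries, beside 3795 of miR-300-3p.

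Of 37 hairpins with both arms listed, the 3p arm held more reads in all 9 libraries in 18 and the 5p arm in 11, while 8 were mixed. The mixed ones include miR-369 and miR-434, each with an arm whose reads move to an opposite-strand entry in some libraries, as described further on. The ratio between arms spanned a wide range, with 49521 reads of miR-127-3p against 34 of miR-127-5p at one end and 3096 of miR-154-5p against 1099 of miR-154-3p among the more even pairs. A small number of members carried the cluster. Over all libraries miR-127-3p made up 27.3% of the cluster's reads, miR-379-5p 16.3% and miR-411-5p 12.9%, together 56.5%, and the most abundant of them ranked 80th among all entries by reads.

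Libraries held 1.93 to 2.95 M miRNA reads in Ad-Yap WT, 1.48 to 2.09 M in Ad-Yap shRNA and 3.496 to 3.599 M in Ad-GFP (M = 1e+06 reads), so low counts are less precise in both Yap groups. Levels below are CPM, reads per 1e+06 after TMM scaling among the miRNAs, which sets the bulk of miRNAs level between groups, so every change is relative to the other miRNAs of a library. Scaling by the library totals that the authors' RPM values imply instead moves the median log2 fold change of all entries to -1.29 for Ad-Yap WT and -2.22 for Ad-Yap shRNA, each against Ad-GFP, and to 0.91 between them. Cardiomyocyte miRNAs (miR-1, miR-133, miR-208 and miR-499, 7 of 7 listed) summed to 46489 to 55214 CPM in the Ad-Yap WT libraries, 87625 to 104467 in Ad-Yap shRNA and 46535 to 50231 in Ad-GFP. Fibroblast and mesenchymal miRNAs (miR-199a and miR-214, 4 of 4 listed) summed to 13183 to 13837 CPM in the Ad-Yap WT libraries, 5137 to 5986 in Ad-Yap shRNA and 14153 to 16497 in Ad-GFP. Endothelial miR-126a (2 of 2) reached 5002 to 5852 CPM, 6172 to 7429 and 3581 to 4480 in the same order, smooth muscle and pericyte miR-143 and miR-145 (2 of 2) 13061 to 14790, 16454 to 21834 and 13867 to 14692, and blood cell miRNAs (6 of 6) 482 to 842, 840 to 856 and 934 to 997. Neuronal miR-9a, miR-124 and miR-137 (3 of 3), whose cells are rich in the cluster, summed to 31.4 to 34.6 CPM in Ad-Yap WT, 30.8 to 39.95 in Ad-Yap shRNA and 24.1 to 31.3 in Ad-GFP, with miR-124-3p at 0 to 9 reads.

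In the cells that received Ad-Yap WT the cluster was lower as a whole. Its summed level was 6230, 5279 and 5039 CPM in the Ad-Yap WT libraries, 7199, 6598 and 6371 CPM in those of Ad-Yap shRNA and 8999, 7824 and 8828 CPM in the Ad-GFP libraries. Ad-Yap WT had the lowest level, Ad-Yap shRNA lay between, and no library of one group overlapped with another group. As a share of miRNA reads, with no scaling, the cluster made up 0.700%, 0.475% and 0.486% in the Ad-Yap WT libraries, 0.637%, 0.528% and 0.489% in those of Ad-Yap shRNA and 1.11%, 0.987% and 1.07% in Ad-GFP. On that scale the Yap groups overlapped and both lay below Ad-GFP, so the order of Ad-Yap WT and Ad-Yap shRNA rests on the scaling. Within each Yap group, replicate 1, the library with the most miRNA reads, had the highest sum, and the part of depth in these differences was not tested. In bulk RNA, fewer cells that express the cluster and less of it per cell cannot be told apart.

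**Figure D1:**
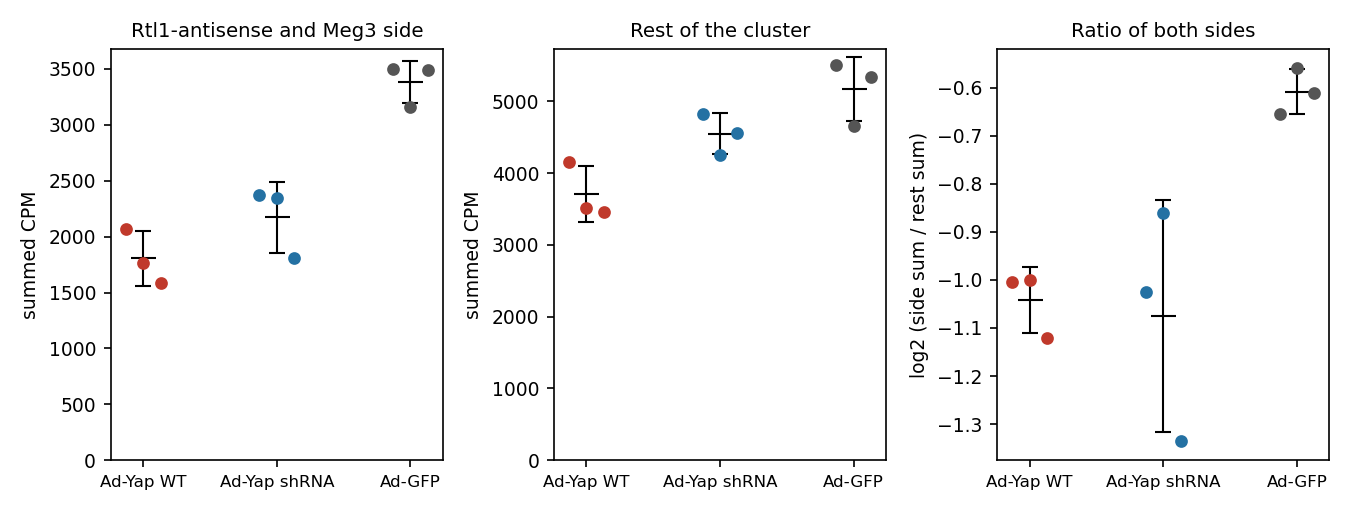
Summed CPM of the Rtl1-antisense and Meg3 side (left) and of the rest of the cluster (middle), and the log2 ratio of both sums (right), for each of 3 libraries in Ad-Yap WT, Ad-Yap shRNA and Ad-GFP; points are libraries, bars are mean and SD. After TMM scaling the side is lower in all 6 Yap libraries than in Ad-GFP, whereas the rest is lowest in Ad-Yap WT and overlaps between Ad-Yap shRNA and Ad-GFP.

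Both stretches differed in how they behaved in Ad-Yap shRNA. The Rtl1-antisense and Meg3 side summed to 1807 ± 245.5 CPM in the Ad-Yap WT libraries, 2174 ± 318 CPM in Ad-Yap shRNA and 3385 ± 191 CPM in Ad-GFP (SD, n = 3 each). The rest summed to 3709 ± 389 CPM in the Ad-Yap WT libraries, 4549 ± 286 CPM in Ad-Yap shRNA and 5166 ± 446 CPM in Ad-GFP. The side was thus lower in both Yap groups, while sums of the rest overlapped between Ad-Yap shRNA and Ad-GFP after TMM scaling. With library size only, the median log2 fold change of the rest for Ad-Yap shRNA against Ad-GFP was -0.64. It was -1.30 for the side and -0.54 for all tested entries, so the level of the rest against Ad-GFP depends on the scaling. A ratio of both sums within a library does not depend on scaling. Its log2 was -1.005, -0.9995 and -1.12 in the Ad-Yap WT libraries, -1.03, -0.86 and -1.34 in those of Ad-Yap shRNA and -0.65, -0.56 and -0.61 in Ad-GFP, with all 6 Yap libraries below all Ad-GFP libraries. These are descriptions without a test, since the members were chosen with results known.

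One member weighs on that ratio. Without miR-127-3p the log2 ratio was -2.66, -2.78 and -3.43 in the Ad-Yap WT libraries, -2.75, -2.35 and -3.32 in those of Ad-Yap shRNA and -2.90, -2.68 and -2.37 in Ad-GFP, and the groups overlapped. Much of the remaining spread came from miR-434-3p, whose reads move to another entry in some libraries, as described further on. With reads of the opposite-strand entries added, a choice made after the data were seen, the side without miR-127-3p summed to 658, 781 and 570.0 CPM in the Ad-Yap WT libraries, 720.2, 836 and 779 CPM in those of Ad-Yap shRNA and 1220.2, 1271 and 1034 CPM in Ad-GFP. Only with this addition did all 6 Yap libraries lie below Ad-GFP in that sum. The corresponding log2 ratios to the rest were -2.67, -2.26 and -2.69 in the Ad-Yap WT libraries, -2.83, -2.44 and -2.65 in those of Ad-Yap shRNA and -2.18, -1.99 and -2.37 in Ad-GFP, where 1 Ad-Yap WT library overlapped with Ad-GFP.

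Member by member, Ad-Yap WT against Ad-GFP asks what raised Yap does to the cluster. In edgeR's quasi-likelihood test, 14 of 56 tested members (25%) were lower in Ad-Yap WT at an adjusted p under 0.05, where 9.67% of all 579 tested entries were lower. Only miR-154-3p (1.79%) was higher, where 15.4% of all entries were, so that 15 passed in either direction (26.8%, against 25% of all entries). Members' median log2 fold change was -0.55, also with miR-382-3p, at 0 reads in Ad-GFP, set to its bound, while that of all tested entries was 0.03. Libraries did not overlap, with Ad-Yap WT below Ad-GFP, in 32 of 56 members (57.1%), where 22.3% of all entries did so, and with Ad-Yap WT above in 1 (1.79%), against 25%. On the Rtl1-antisense and Meg3 side 7 of 15 were lower and all 15 fold changes were below 0, with a median of -0.74. In the rest, 7 of 41 were lower and 1 higher, with a median of -0.52. Of the members wholly below Ad-GFP, miR-770-5p on the side and miR-668 in the rest were tested only because of their Ad-GFP reads. Their lower values are no independent support for a fall, and neither passed the test. Lower members numbered 6 of 58 without Ad-Yap WT replicate 3, 7 of 56 without Ad-GFP replicate 1 and 9 of 56 without Ad-GFP replicate 3, where 3.02%, 4.17% and 5.72% of all entries were lower.

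Ad-Yap shRNA against Ad-GFP asks what lowered Yap does. Here 7 of 56 members (12.5%) were lower, fewer than the 17.8% of all tested entries, and 3 (5.36%) were higher, where 24% of all entries were. Those higher include miR-299a-5p and miR-299b-5p, which had enough reads to be tested only because of their Ad-Yap shRNA reads. In either direction 10 passed (17.9%), against 41.8% of all entries. With library size only 27 of 56 were lower and 3 higher, beside 38.2% and 11.4% of all entries. Under the implied library totals 54 of 60 tested members were lower and 0 higher, beside 83.8% and 1.96% of all entries. The members' median log2 fold change was -0.13, with or without miR-382-3p at its bound, and that of all entries was 0.04. Both stretches gave different counts, with 5 of 15 members lower and 0 higher on the Rtl1-antisense and Meg3 side at a median of -0.71, and 2 of 41 lower and 3 higher in the rest at a median of -0.06. Libraries of Ad-Yap shRNA lay wholly below Ad-GFP in 9 of 15 members of the side and in 8 of 41 of the rest, beside 24.4% of all entries. These again include miR-770-5p and miR-668, tested only because of their Ad-GFP reads. Ad-Yap shRNA libraries lay wholly above in 6 members, all in the rest (10.7%), beside 30.9%, with miR-299a-5p and miR-299b-5p among them. Both comparisons share the Ad-GFP libraries, so falls in both are not independent of each other.

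**Figure D2:**
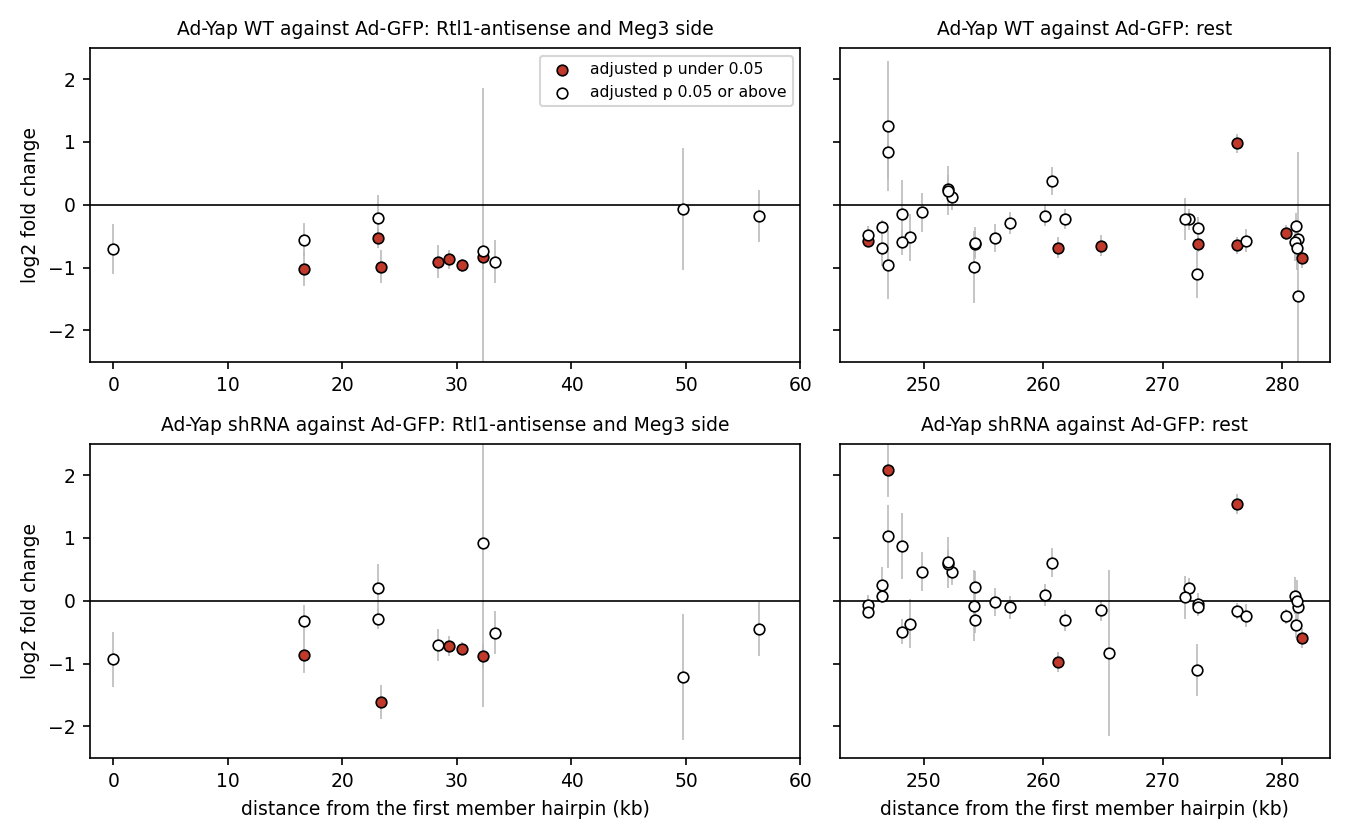
Log2 fold change (points, with SE as lines) of each tested member against its distance in kb from the first member hairpin, for Ad-Yap WT against Ad-GFP (top) and Ad-Yap shRNA against Ad-GFP (bottom); filled points passed the edgeR test at an adjusted p under 0.05. On the left stretch points lie below 0 in both comparisons with few exceptions, on the right stretch they lie below 0 mainly for Ad-Yap WT; miR-136-5p has no position, and outside the plotted range lie miR-539-5p (top), miR-369-5p with miR-299b-5p (bottom) and miR-382-3p (both).

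The direct comparison of Ad-Yap WT with Ad-Yap shRNA gave 7 of 56 members lower (12.5%, all in the rest), where 14.3% of all tested entries were lower, a share near the background. Those lower include miR-299b-5p, tested only because of its Ad-Yap shRNA reads. In edgeR 0 members were higher, where 14.2% of all entries were (28.5% in either direction), as in DESeq2, and 15 of 56 members (26.8%) had an unadjusted p under 0.05 in either direction, beside 41.3% of all entries. The median log2 fold change was -0.15 for the Rtl1-antisense and Meg3 side, -0.40 for the rest and -0.04 for all tested entries. With library size only these medians were 0.16, -0.11 and 0.24, and under the implied library totals 0.81, 0.53 and 0.91, so the direction depends on the scaling, while the members' median lay below that of all entries on each. Of the side 0 of 15 passed this test, and 1 (6.67%) had an unadjusted p under 0.05. Libraries of Ad-Yap WT lay wholly below those of Ad-Yap shRNA in 16 members, all in the rest (28.6%, against 23% of all entries), and above in 2 (3.57%, against 20.4%). Lower members numbered 3 of 58 without Ad-Yap WT replicate 3 and 4 of 58 without Ad-Yap shRNA replicate 1, where 10.5% and 9.92% of all entries were lower.

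Among members antisense to Rtl1, miR-127-3p, the most abundant member, had 1416, 1249 and 1267 CPM in the Ad-Yap WT libraries, 1652, 1507 and 1350.4 CPM in those of Ad-Yap shRNA and 2761, 2435 and 2459.5 CPM in Ad-GFP. All 6 Yap libraries were below the 3 of Ad-GFP. The log2 fold change was -0.96 (SE 0.10, edgeR adjusted p = 0.000648) for Ad-Yap WT and -0.76 (SE 0.10, adjusted p = 0.000966) for Ad-Yap shRNA, each against Ad-GFP, while Ad-Yap WT against Ad-Yap shRNA gave -0.20 (SE 0.10, adjusted p = 0.181). It made up 22.7%, 23.7% and 25.1% of the cluster's reads in the Ad-Yap WT libraries, 22.9%, 22.8% and 21.2% in those of Ad-Yap shRNA and 30.7%, 31.1% and 27.9% in Ad-GFP, so its share of the cluster was lower in both Yap groups too. Its neighbour miR-433-3p, reported to promote fibrosis in rodent heart, had 79.7, 61.6 and 73.4 CPM in the Ad-Yap WT libraries, 70.7, 82.8 and 84.3 CPM in those of Ad-Yap shRNA and 135, 143 and 114 CPM in Ad-GFP. It fell in both groups, with log2 fold changes of -0.87 (SE 0.16, adjusted p = 0.00681) for Ad-Yap WT and -0.72 (SE 0.16, adjusted p = 0.00735) for Ad-Yap shRNA.

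The 5p arm of miR-434 followed the same course at a lower level. It had 19.9, 17.9 and 20.3 CPM in the Ad-Yap WT libraries, 22.1, 14.7 and 19.3 CPM in those of Ad-Yap shRNA and 39.2, 29.4 and 34.8 CPM in Ad-GFP, without overlap between either Yap group and Ad-GFP. Its log2 fold change was -0.83 (SE 0.19, edgeR adjusted p = 0.0160) in Ad-Yap WT, with an adjusted p of 0.0595 without Ad-GFP replicate 1, and -0.87 (SE 0.19, adjusted p = 0.00742) in Ad-Yap shRNA. Also antisense to Rtl1, miR-431 fell in Ad-Yap WT (-0.90, adjusted p = 0.0370), while its value in Ad-Yap shRNA was -0.71 (adjusted p = 0.0586).

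Between Meg3 and Rtl1 in the order of genes, miR-540-3p had 34.1, 18.4 and 18.8 CPM in the Ad-Yap WT libraries, 13, 16.2 and 17.6 CPM in those of Ad-Yap shRNA and 50.7, 50.3 and 41.7 CPM in Ad-GFP. This was the largest fall among called members in Ad-Yap shRNA, with a log2 fold change of -1.61 (SE 0.27, edgeR adjusted p = 0.00251), and -0.99 (SE 0.26, adjusted p = 0.0301) in Ad-Yap WT. For miR-493-5p the level was 38.0, 20.7 and 36.7 CPM in the Ad-Yap WT libraries, 58.3, 37.9 and 58.9 CPM in those of Ad-Yap shRNA and 67.6, 65.1 and 61.5 CPM in Ad-GFP. It fell in Ad-Yap WT (-1.02, SE 0.27, adjusted p = 0.0285), and its value in Ad-Yap shRNA was -0.32 (SE 0.26, adjusted p = 0.368). Of the other tested members of the side, miR-337-5p fell in Ad-Yap WT (-0.53, adjusted p = 0.0465) and miR-493-3p in Ad-Yap shRNA (-0.86, adjusted p = 0.0435). Both calls lay close to the threshold and were not followed through other settings, and miR-493-3p had 13, 6 and 9 reads in the Ad-Yap shRNA libraries. By contrast miR-341, an imperfect repeat of CGGU units named here after its values were seen, ranged within single groups, with 15.7, 164 and 9.66 CPM in the Ad-Yap WT libraries, 28.6, 22.4 and 34.3 CPM in those of Ad-Yap shRNA and 105, 60.8 and 31.5 CPM in Ad-GFP.

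**Figure D3:**
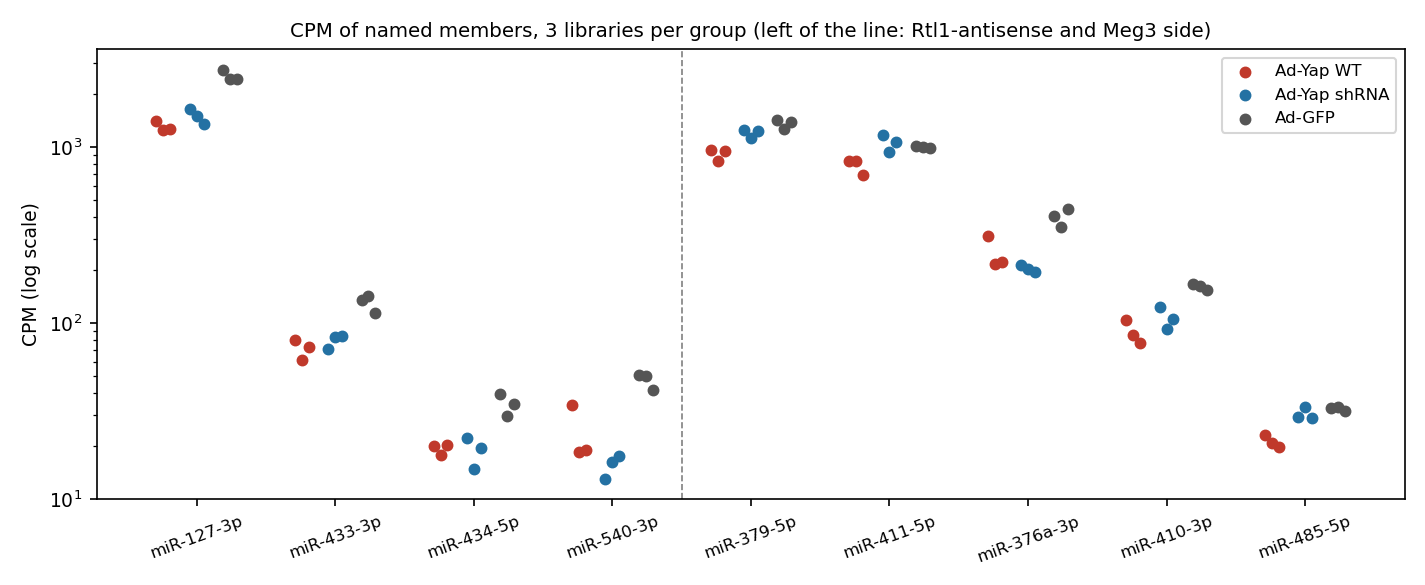
CPM on a log axis of 9 named members in each library of Ad-Yap WT, Ad-Yap shRNA and Ad-GFP, with members of the Rtl1-antisense and Meg3 side left of the dashed line. The 4 members of the side are low in both Yap groups, while miR-379-5p, miR-411-5p and miR-485-5p are lowest in Ad-Yap WT, and miR-376a-3p and miR-410-3p are low in both.

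In the other stretch the first and second most abundant members, miR-379-5p and miR-411-5p, sit on its first hairpins. For miR-379-5p there were 961, 839 and 950.1 CPM in the Ad-Yap WT libraries, 1258, 1130.4 and 1234 CPM in those of Ad-Yap shRNA and 1434, 1263 and 1388 CPM in Ad-GFP. Ad-Yap WT libraries lay below all others. It fell in Ad-Yap WT by 0.57 on the log2 scale against Ad-GFP (SE 0.09, edgeR adjusted p = 0.00480) and by 0.40 against Ad-Yap shRNA (SE 0.09, adjusted p = 0.0113), with -0.17 (SE 0.09, adjusted p = 0.151) for Ad-Yap shRNA against Ad-GFP. The call between the Yap groups was lost with no filter and with library size only, and turned to 0.53 under the implied totals. For miR-411-5p there were 840.0, 833 and 691 CPM in the Ad-Yap WT libraries, 1173, 939 and 1066 CPM in those of Ad-Yap shRNA and 1011, 1008 and 989 CPM in Ad-GFP. Its log2 fold change was -0.35 (SE 0.11, adjusted p = 0.0513) for Ad-Yap WT and 0.08 (SE 0.11, adjusted p = 0.600) for Ad-Yap shRNA, each against Ad-GFP. Between the Yap groups it was -0.43 (SE 0.11, adjusted p = 0.0229), a call lost when Ad-Yap WT replicate 3 or replicate 1 of Ad-Yap shRNA was left out, with no filter, with library size only and in fits of 2 groups, and turned to 0.48 under the implied totals. Its value for Ad-Yap shRNA against Ad-GFP turned to -0.51 with library size only, past the threshold, and to -2.104 under the implied totals.

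The same order was seen at miR-485-5p, which had 22.9, 20.7 and 19.8 CPM in the Ad-Yap WT libraries, 29.2, 33.3 and 29.0 CPM in those of Ad-Yap shRNA and 32.9, 33.2 and 31.5 CPM in Ad-GFP. It fell in Ad-Yap WT against Ad-GFP (-0.62, SE 0.13, edgeR adjusted p = 0.0120) and against Ad-Yap shRNA (-0.52, SE 0.13, adjusted p = 0.0207), each lost without Ad-Yap WT replicate 3 and with no filter on low counts. The second call was also lost without Ad-Yap shRNA replicate 2, in DESeq2, with library size only, with cyclic loess and in fits of 2 groups, and turned to 0.41 under the implied totals. Also in this stretch, miR-487b-3p (-0.65, adjusted p = 0.0238) and miR-541-5p (-0.44, adjusted p = 0.0304) fell in Ad-Yap WT against Ad-GFP.

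Unlike these, miR-376a-3p and miR-410-3p fell in both groups. For miR-376a-3p, a miRNA whose precursor is edited in mouse and human brain, there were 313, 217 and 222 CPM in the Ad-Yap WT libraries, 214, 203 and 196 CPM in those of Ad-Yap shRNA and 405, 353 and 448 CPM in Ad-GFP. Its log2 fold change was -0.97 (SE 0.16, edgeR adjusted p = 0.00243) in Ad-Yap shRNA and -0.68 (SE 0.16, adjusted p = 0.0207) in Ad-Yap WT, where leaving out Ad-Yap WT replicate 2 or 3 or Ad-GFP replicate 1 or 3 ended the call. For miR-410-3p there were 104, 85.8 and 77.3 CPM in the Ad-Yap WT libraries, 123, 92.8 and 105 CPM in those of Ad-Yap shRNA and 167, 162 and 153 CPM in Ad-GFP. It fell by 0.85 (SE 0.16, adjusted p = 0.00805) in Ad-Yap WT and by 0.59 (SE 0.16, adjusted p = 0.0196) in Ad-Yap shRNA on the log2 scale.

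The abundant members miR-376c-3p, miR-380-3p and miR-300-3p passed no test. Log2 fold changes of miR-376c-3p were -0.17 for Ad-Yap WT and 0.09 for Ad-Yap shRNA, each against Ad-GFP, those of miR-380-3p were -0.59 (edgeR adjusted p = 0.0621) and -0.49 (adjusted p = 0.0827), and those of miR-300-3p were -0.22 and -0.31. Its neighbour miR-376a-3p fell while miR-376c-3p did not pass, and a test of the difference between both was not run.

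Of the 14 cluster hairpins with both arms tested, that of miR-154 was the only one whose arms both passed the test in opposite directions, in Ad-Yap WT against Ad-GFP. The 5p arm had 93.6, 85.8 and 96.6 CPM in the Ad-Yap WT libraries, 124, 113 and 149 CPM in those of Ad-Yap shRNA and 144, 149.6 and 138 CPM in Ad-GFP. It fell in Ad-Yap WT (-0.65, SE 0.13, edgeR adjusted p = 0.0123), and its value in Ad-Yap shRNA was -0.16 (SE 0.13, adjusted p = 0.368). The 3p arm had 55.2, 56.4 and 52.2 CPM in the Ad-Yap WT libraries, 81.5, 80.5 and 80.8 CPM in those of Ad-Yap shRNA and 31.1, 22 and 30.1 CPM in Ad-GFP, with no overlap between any groups. It rose in Ad-Yap WT (0.98, SE 0.16, adjusted p = 0.00555) and in Ad-Yap shRNA (1.54, SE 0.16, adjusted p = 0.000344), and under the implied library totals these values were -0.32 and -0.65, still above the median of all entries. Between the Yap groups the 3p arm was lower in Ad-Yap WT (-0.57, adjusted p = 0.0308), as was the 5p arm (-0.48, adjusted p = 0.0311), calls that 5 and 7 of 9 left-out libraries ended. Both were also lost with no filter and with library size only, the 5p call also with RLE factors and in fits of 2 groups, and they turned to 0.33 and 0.45 under the implied totals.

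Reads of both arms within a library give a ratio that needs no scaling. For miR-154 its log2, 5p over 3p, was 0.76, 0.60 and 0.89 in the Ad-Yap WT libraries, 0.60, 0.49 and 0.88 in those of Ad-Yap shRNA and 2.21, 2.76 and 2.20 in Ad-GFP, from 92 to 183 reads of the 3p arm per library. No Yap library overlapped with Ad-GFP. The difference from Ad-GFP was -1.64 for Ad-Yap WT (SE 0.22, limma adjusted p = 0.00218) and -1.73 for Ad-Yap shRNA (SE 0.22, adjusted p = 0.000840). The difference between Ad-Yap WT and Ad-Yap shRNA was 0.09 (SE 0.22, adjusted p = 0.787). It was the only one of 14 cluster hairpins with both arms tested to pass in either comparison with Ad-GFP, where 2.38% of 126 hairpins passed for Ad-Yap WT and 27.8% for Ad-Yap shRNA. All alternatives and left-out libraries run for this ratio kept both calls, with differences from -1.46 to -1.74 in Ad-Yap WT and from -1.55 to -1.85 in Ad-Yap shRNA.

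At miR-493 the arm ratio separated Ad-Yap WT from Ad-Yap shRNA. There were 126, 36 and 76 reads of the 5p arm and 30, 9 and 20 of the 3p arm in Ad-Yap WT, 108, 49 and 67 against 13, 6 and 9 in Ad-Yap shRNA, and 300, 290 and 260 against 47, 61 and 48 in Ad-GFP. The log2 ratio was lower in Ad-Yap WT than in Ad-Yap shRNA (difference -0.96, SE 0.20, limma adjusted p = 0.0201), where 11.9% of hairpins passed. This call was lost without Ad-Yap WT replicate 1 or 3 or Ad-Yap shRNA replicate 1, with a pseudocount of 5 and in fits of 2 groups, and the low 3p counts limit it. Against Ad-GFP the difference was -0.48 for Ad-Yap WT (adjusted p = 0.258) and 0.48 for Ad-Yap shRNA (adjusted p = 0.112).

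**Figure D4:**
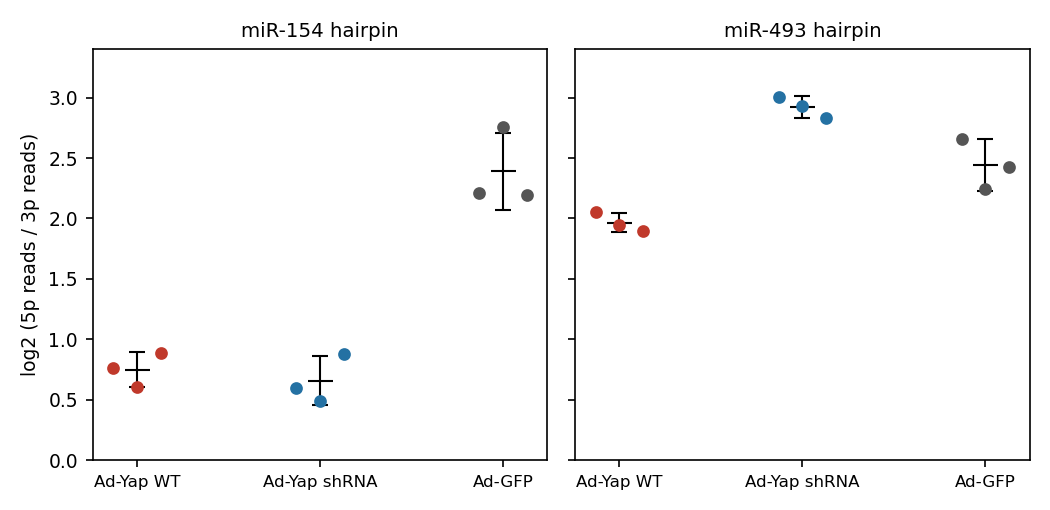
Log2 ratio of 5p to 3p reads of the miR-154 hairpin (left) and the miR-493 hairpin (right) in each library of Ad-Yap WT, Ad-Yap shRNA and Ad-GFP; points are libraries, bars are mean and SD. For miR-154 all 6 Yap libraries lie between 0.49 and 0.89 and Ad-GFP libraries between 2.20 and 2.76, whereas for miR-493 Ad-Yap shRNA lies highest and Ad-Yap WT lowest.

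Besides miR-154-3p, both other members that rose in Ad-Yap shRNA come from the miR-299 locus, with few reads. For miR-299a-5p there were 17, 4 and 14 reads in the Ad-Yap WT libraries, 16, 20 and 12 in those of Ad-Yap shRNA and 10, 9 and 16 in Ad-GFP, or 5.13, 2.30 and 6.76 CPM, 8.64, 15.5 and 10.5 CPM, and 2.25, 2.02 and 3.79 CPM in the same order. Scaled levels rose in Ad-Yap shRNA (2.08, SE 0.42, edgeR adjusted p = 0.00564), a call lost under the implied totals, where the value was -0.13, and the value for Ad-Yap WT was 0.84 (adjusted p = 0.184). Without its Ad-Yap shRNA reads miR-299a-5p would not have passed the filter on low counts. Its call as higher in Ad-Yap shRNA is therefore no independent support for a rise. For miR-299b-5p there were 1, 2 and 0 reads in the Ad-Yap WT libraries, 17, 9 and 8 in those of Ad-Yap shRNA and 0, 1 and 1 in Ad-GFP. Only the Ad-Yap shRNA reads took miR-299b-5p past that filter too. Its call there as higher (edgeR adjusted p = 0.000929) is likewise no independent support for a rise. As a description, 34 reads against 2, scaled for depth, gave a ratio of 52.1. The 95% exact counting interval of 13.3 to 447 covers counting error only and does not allow for that selection. As miR-299b-5p differs from miR-299a-5p by 1 base and is the complement of miR-299a-3p, which of these entries gained reads is uncertain. Levels of miR-299a-3p were 3.02, 6.34 and 0.483 CPM in the Ad-Yap WT libraries, 14.0, 13.9 and 9.66 CPM in those of Ad-Yap shRNA and 6.53, 6.06 and 5.92 CPM in Ad-GFP, lower in Ad-Yap WT than in Ad-Yap shRNA (-1.98, SE 0.56, adjusted p = 0.0332), a call that 7 of 9 left-out libraries ended, as did no filter, library size only, the implied totals and fits of 2 groups.

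In 7 pairs, members overlap an entry on the opposite strand, and their reads were not split evenly. The pairs that matter are shown here from RefSeq (GRCr8), with the bases shared as exact reverse complements in capitals, the plus strand entry first in each pair.
miR-434-3p: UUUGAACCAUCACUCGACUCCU
miR-3543: cAGGAGUCGAGUGAUGGUUCAAA
miR-369-5p: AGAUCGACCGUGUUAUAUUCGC
miR-3578: GCGAAUAUAACACGGUCGAUCU
miR-299a-3p: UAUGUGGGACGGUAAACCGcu
miR-299b-5p: CGGUUUACCGUCCCACAUAc

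For miR-434 and miR-369, each library put nearly all reads of the pair on one strand or on the other. The entry miR-434-3p had 721, 2 and 2 reads in the Ad-Yap WT libraries, 480, 563 and 0 in those of Ad-Yap shRNA and 6, 4 and 1550 in Ad-GFP, while miR-3543 had 4, 468 and 516, then 2, 1 and 367, then 2147, 2414 and 4 in the same libraries. The entry miR-369-5p had 846, 1 and 0 reads in the Ad-Yap WT libraries, 0, 1 and 0 in those of Ad-Yap shRNA and 1580, 0 and 1486 in Ad-GFP, while miR-3578 had 5, 365 and 445, then 505, 335 and 342, then 0, 1644 and 0. In each library the entry that is low on one strand is high on the other, and their sums vary less than either. The pairs of miR-539-5p with miR-3576 and of miR-382-3p with miR-3592 also had most reads of a library on one strand, which differed among the 9 libraries. By contrast the pair of miR-299a-3p and miR-299b-5p was split in Ad-Yap shRNA, with 26, 18 and 11 reads against 17, 9 and 8. Those of miR-376a-3p with miR-3595 and of miR-409a-3p with miR-409b kept the same main strand in all 9 libraries. Taken alone, miR-434-3p (edgeR adjusted p = 0.870 for Ad-Yap WT and 0.822 for Ad-Yap shRNA) and the other alternating entries passed no test against Ad-GFP.

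Summed over both strands, miR-369-5p with miR-3578 had 255, 208 and 211 CPM in the Ad-Yap WT libraries, 276, 269 and 305 CPM in those of Ad-Yap shRNA and 343, 391 and 338 CPM in Ad-GFP. The groups did not overlap, and the sum fell in Ad-Yap WT (-0.67, SE 0.12, edgeR adjusted p = 0.00524) and in Ad-Yap shRNA (-0.33, SE 0.12, adjusted p = 0.0442). Summed miR-434-3p and miR-3543 had 217, 267 and 245 CPM in the Ad-Yap WT libraries, 264, 452 and 327 CPM in those of Ad-Yap shRNA and 467, 575 and 353 CPM in Ad-GFP. That sum fell in Ad-Yap WT (-0.94, SE 0.23, adjusted p = 0.0174), and its value in Ad-Yap shRNA was -0.42 (SE 0.23, adjusted p = 0.170). With all such pairs summed over the whole table, 19 of 54 members or member sums were lower and 1 higher in Ad-Yap WT, where 11.4% and 17.2% of 553 tested entries were. In Ad-Yap shRNA 7 were lower and 5 higher, beside 18.3% and 27.1% of entries. The summed miR-299a-3p and miR-299b-5p rose in Ad-Yap shRNA (1.72, SE 0.48, adjusted p = 0.0183).

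**Figure D5:**
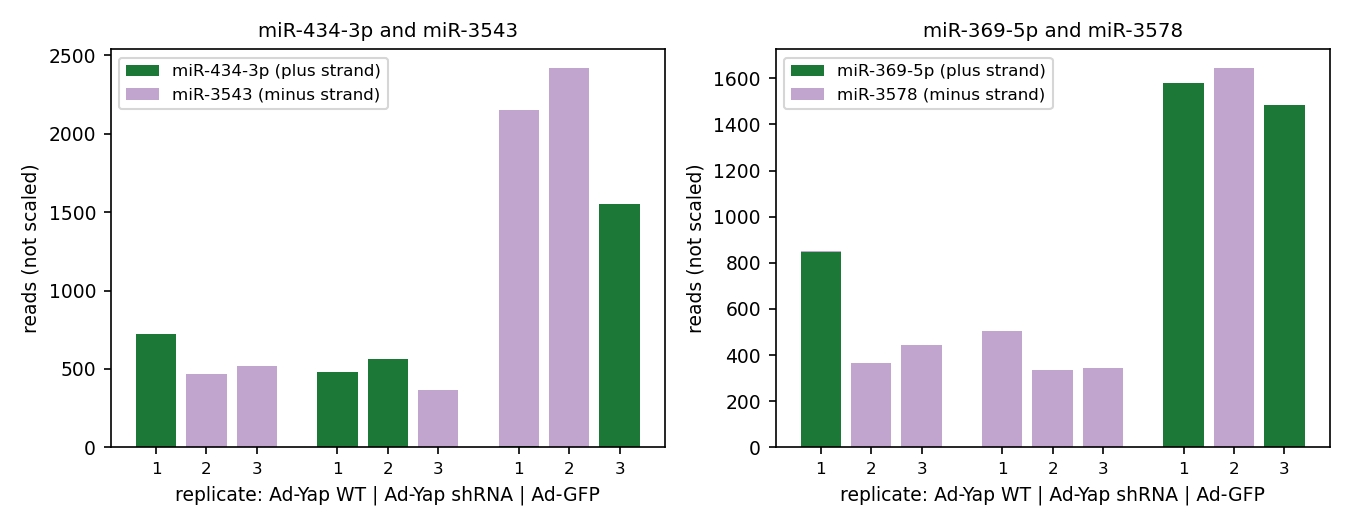
Reads, not scaled, of miR-434-3p and its opposite-strand entry miR-3543 (left) and of miR-369-5p and miR-3578 (right) in each library, stacked, with replicates of Ad-Yap WT, Ad-Yap shRNA and Ad-GFP from left to right. The reads of a library sit almost wholly on one entry, which differs between replicates of every group for miR-434-3p and of Ad-Yap WT and Ad-GFP for miR-369-5p, while all 3 Ad-Yap shRNA libraries hold miR-3578.

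Beyond the rule, the table lists 10 further entries of the region, 5 of them the opposite-strand entries miR-3543, miR-3576, miR-3578, miR-3592 and miR-3595. Of the others, miR-673-5p had 25 reads in Ad-Yap WT, 16 in Ad-Yap shRNA and 53 in Ad-GFP over 3 libraries each, and miR-673-3p, miR-679 and both arms of miR-1188 had too few reads to test. Marker sums given above moved with the groups. In Ad-Yap shRNA the cardiomyocyte, endothelial, and smooth muscle and pericyte sums were highest, and the fibroblast and mesenchymal sum was lowest. Single markers did not all follow their sums. In Ad-Yap shRNA miR-145-5p was higher (8465 to 14190 CPM, against 4209 to 5097 in Ad-GFP). By contrast miR-143-3p was lower (7526 to 8131 CPM, against 9595 to 9876). Levels of miR-208a-3p and miR-208b-3p overlapped between Ad-Yap shRNA and Ad-GFP. In Ad-Yap WT the fibroblast and mesenchymal sum was slightly below Ad-GFP and the endothelial sum above it. The part of cell composition in these results was not tested.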

How the data were processed

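Small RNA reads of 9 libraries were analysed from 1 deposited table. It holds read counts per miRNA, whole numbers that the authors did not normalize, and RPM values that the authors derived from them. Per the submitters' processing notes, Bowtie2, DESeq2 and the rn6 build were used, with no versions or roles. The assignment of multiply matching reads and the use of strand are not stated in these sources. Deposited group averages were not used.

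Counts were tested with edgeR 4.0.16 in R 4.3.3 (filterByExpr with a minimum count of 10, TMM, glmQLFit and glmQLFTest, all 9 libraries, 1 mean per group), with two-sided p-values adjusted by Benjamini-Hochberg over all 579 tested entries and a threshold of 0.05. SE was derived from the fold change and F. Arm ratios, log2 of reads plus 0.5, were tested with limma 3.58.1 over 126 hairpins. Scripts were tested on simulated data. The members and lists were chosen with earlier results of these data known. Named members were, per comparison, the 8 with the smallest p past the threshold, the 8 highest by mean CPM, both arms where an arm ratio passed, and every member that rose; other members that fell are named briefly. Because of PCR, counting intervals cover counting error only. The replicate numbers are not stated to pair libraries.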

Additional observations from a re-analysis of the deposited data

How the results depend on the processing

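Scaling set many of the counts. With library size only, 24 of 56 members were lower for Ad-Yap WT and 27 for Ad-Yap shRNA, each against Ad-GFP, and 1 for Ad-Yap WT against Ad-Yap shRNA, where 18.0%, 38.2% and 6.56% of all entries were lower. With the library totals that the deposited RPM values imply, these counts were 47, 54 and 0 of 60, where 52.6%, 83.8% and 1.06% of all entries were lower, and 0 members were higher against Ad-GFP. Library size only moved the median of all entries to -0.27, -0.54 and 0.24. The members' median minus that of all entries ranged from -0.61 to -0.50 for Ad-Yap WT, from -0.27 to -0.03 for Ad-Yap shRNA and from -0.37 to -0.24 between them, over all settings. For Ad-Yap WT against Ad-Yap shRNA, 1 of 84 members was lower with no filter and 3 of 49 in fits of 2 groups, where 4.01% and 12.1% of all entries were lower. DESeq2 called 2 members higher for Ad-Yap WT (17.4% of all entries), and with opposite-strand entries summed 5 were higher for Ad-Yap shRNA. Causes were not tested.

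Each library left out gave 6 to 14 members lower for Ad-Yap WT, 3 to 5 higher for Ad-Yap shRNA (5 without Ad-Yap WT replicate 3), and 3 to 6 lower for Ad-Yap WT against Ad-Yap shRNA, beside 3.02% to 8.61%, 17.7% to 22.6% and 9.92% to 13% of all entries. For arm ratios, 2 of the cluster hairpins passed for Ad-Yap shRNA with a pseudocount of 5, and 1 to 2 with libraries left out. In the main fit 27.8% of 126 hairpins passed for Ad-Yap shRNA and 11.9% between the Yap groups. Between the Yap groups 0 cluster hairpins passed with that pseudocount or in fits of 2 groups, and 0 to 1 with libraries left out. Shares of all hairpins under these alternatives are not given, so these counts are not read as a trait of the cluster.

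Under the implied totals miR-154-3p had -0.32 for Ad-Yap WT, -0.65 for Ad-Yap shRNA and 0.33 between them. For Ad-Yap shRNA against Ad-GFP miR-299a-5p had -0.13, miR-411-5p -2.104 and miR-376c-3p -2.096, and between the Yap groups miR-379-5p had 0.53, miR-485-5p 0.41, miR-411-5p 0.48 and miR-154-5p 0.45. With library size only miR-411-5p had -0.51 for Ad-Yap shRNA.

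The log2 difference of the cluster sum was -0.95 for Ad-Yap WT, -0.94 for Ad-Yap shRNA and -0.0090 between them with library size only, and -0.20 for Ad-Yap shRNA without miR-127-3p. Without that member the log2 ratio of both sides differed by -0.31, -0.16 and -0.15.

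A replicate block gave 12 lower and 1 higher for Ad-Yap WT, 7 lower and 3 higher for Ad-Yap shRNA, and 8 lower between them, beside 8.46%, 14.3%, 16.6%, 22.8% and 14.5% of all entries in this order, and among calls of named members it ended that of miR-154-3p between the Yap groups. Same-numbered libraries correlated from -0.34 to 0.34 in their deviations from group means, and differently numbered ones from -0.35 to 0.33. With 3 libraries per group such deviations are constrained, so they cannot show whether the numbers pair libraries. Of 24 calls of named members followed in this way, 12 held in all left-out libraries and in every setting that tested them, and 8 reversed under the implied totals. The 12 include the calls of miR-299b-5p, which was tested only because of its Ad-Yap shRNA reads, so these add no independent support. The calls of miR-299b-5p were tested in 10 settings, where most others were tested in 13. Not among the 24 are miR-540-3p, miR-493-5p, miR-431, miR-337-5p, miR-487b-3p and miR-541-5p in Ad-Yap WT. The same holds for miR-410-3p and miR-493-3p in Ad-Yap shRNA.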
